A study of Rattus norvegicus with 8 samples.

Results

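Transcripts of the cytochrome P450 family 1 and of the receptor pair that controls it were followed in rat liver after D3T, a dithiolethione known to induce detoxification enzymes. The members were the non-control probe sets annotated to Cyp1a1, Cyp1a2, Cyp1b1, Ahr or Arnt alone, which gave 14 of 8740 probe sets and 5 of 4736 named genes. Cyp1b1 and Ahr had 4 probe sets each, Cyp1a2 had 3, Arnt had 2 and Cyp1a1 had 1. Livers came from 8 male Fischer 344 rats fed AIN 76A chow, with age given in the labels as 6 and no unit. D3T was given to 4 rats by stomach tube, at 0.3 mmol/kg in a saturated sucrose solution, on days 1, 3 and 5. The other 4 rats, the vehicle group, were given 0.2 ml of that solution alone. The days are stated for 3 of the 4 vehicle rats and not for vehicle replicate 2, and the time from the last dose to sampling is not given in the sources used here. Total RNA of each snap-frozen liver was read on 1 Affymetrix Rat Genome U34 array (version A), a short-oligonucleotide array that gives 1 fluorescence signal per probe set. An array gives no count, so the number of arrays limits the precision. Whole liver was used, so fewer cells of a type and less RNA per cell cannot be told apart.

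The aryl hydrocarbon receptor, encoded by Ahr, waits in the cytosol in a complex with the chaperone Hsp90, enters the nucleus when it binds a ligand such as dioxin, and pairs there with the protein encoded by Arnt. The pair binds xenobiotic response elements in DNA and raises transcription of Cyp1a1, Cyp1a2 and Cyp1b1, among other genes. In liver, Cyp1a2 is made by hepatocytes without an inducer, chiefly around the central vein, and its enzyme oxidises caffeine and aromatic amines. Cyp1a1 is low in liver until the receptor is activated, and Cyp1b1, whose enzyme hydroxylates oestradiol, is made mainly outside hepatocytes. Ahr and Arnt are thus the regulators, and the label of receptor targets applies to the CYP1 genes.

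The promoters of 4 of the 5 members were matched by symbol in the RefSeq table of assembly GRCr8, and the 250 bases before the start of transcription were searched on both strands. Cyp1a2 is shown because its transcript carried the changes described below, and Cyp1b1 and Arnt because the core letters of response elements were present there. Capitals mark a match to the xenobiotic response element core GCGTG, the antioxidant response element core TGACNNNGC or the TATA box TATAAA, and no matches overlapped.
Cyp1a2, chr8:66978150-66978399, minus strand: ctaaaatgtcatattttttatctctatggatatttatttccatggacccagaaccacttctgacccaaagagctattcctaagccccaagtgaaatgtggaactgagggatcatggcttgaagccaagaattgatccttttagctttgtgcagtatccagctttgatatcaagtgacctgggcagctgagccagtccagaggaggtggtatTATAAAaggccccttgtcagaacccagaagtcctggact
Cyp1b1, chr6:21094315-21094564, plus strand: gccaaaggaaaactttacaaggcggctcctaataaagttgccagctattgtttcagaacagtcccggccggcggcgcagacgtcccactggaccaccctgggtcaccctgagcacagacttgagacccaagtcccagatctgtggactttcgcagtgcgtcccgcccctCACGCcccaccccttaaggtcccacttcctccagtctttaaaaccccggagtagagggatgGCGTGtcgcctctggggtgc
Arnt, chr2:185686453-185686702, plus strand: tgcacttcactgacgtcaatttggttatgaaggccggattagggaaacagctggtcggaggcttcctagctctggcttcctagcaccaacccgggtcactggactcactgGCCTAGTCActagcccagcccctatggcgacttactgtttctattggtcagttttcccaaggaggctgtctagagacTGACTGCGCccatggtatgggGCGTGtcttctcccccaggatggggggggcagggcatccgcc
The Cyp1a2 window held 1 TATA box, beginning 39 bases before the start, and 0 matches to either response element core. The Cyp1b1 window held 2 xenobiotic cores, beginning 81 and 20 bases before the start. Arnt held 1 xenobiotic core and 2 antioxidant cores, and the Ahr window held no match to any of these letters. Of 33469 rat promoters of that length, 25.9% held GCGTG, 10.1% held TGACNNNGC and 12.9% held TATAAA, so these matches are common and describe letters only. The table places Cyp1a1 and Cyp1a2 next to each other on chromosome 8 with 0 annotated genes between them.

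Cyp1a2 was lower after D3T on all 3 of its probe sets. Of the other members only 2 probe sets of Arnt and 1 of Cyp1b1 were bright enough to be tested, and none passed. On probe set M26127_s_at the MAS5 signal was 2706, 2487, 2845 and 3509 in vehicle replicates 1 to 4, and 1309, 1546, 1486 and 820.0 in D3T replicates 1 to 4. Every D3T array thus lay below every vehicle array, with means of 2887 ± 440.3 (SD, n = 4) in vehicle and 1290 ± 329.1 (SD, n = 4) after D3T. The geometric means of these signals differed 2.28-fold (log2 fold change -1.19 ± 0.20 SE, limma adjusted p = 0.00606).

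On E01184cds_s_at the signal was 2412, 2541, 2658 and 3208 in vehicle replicates 1 to 4, against 1174, 1102, 924.9 and 837.5 in D3T replicates 1 to 4. These were the tightest groups of the 3 probe sets, with coefficients of variation of 12.9% and 15.4%, and they did not overlap. The signal fell 2.69-fold (log2 fold change -1.43 ± 0.14 SE, limma adjusted p = 0.000289), and its p ranked 18 among the 5244 probe sets tested.

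On K03241cds_s_at the signal was 806.1, 878.0, 1276 and 1814 in vehicle replicates 1 to 4, against 150.3, 377.3, 149.0 and 28.2 in D3T replicates 1 to 4. D3T replicate 4 came close to the floor of 20.4, below which signals were set to that value. The fall of 9.10-fold (log2 fold change -3.19 ± 0.63 SE, limma adjusted p = 0.0122) was the largest of all 5244 probe sets tested on the log2 scale. It rested partly on that array, since without D3T replicate 4 the fall was 5.55-fold (limma adjusted p = 0.00659). D3T replicate 4 was the lowest of all arrays on each of the 3 Cyp1a2 probe sets, at 28.4%, 31.0% and 2.37% of the vehicle mean on M26127_s_at, E01184cds_s_at and K03241cds_s_at. Vehicle replicate 4 was the highest on all 3.

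**Figure D1:**
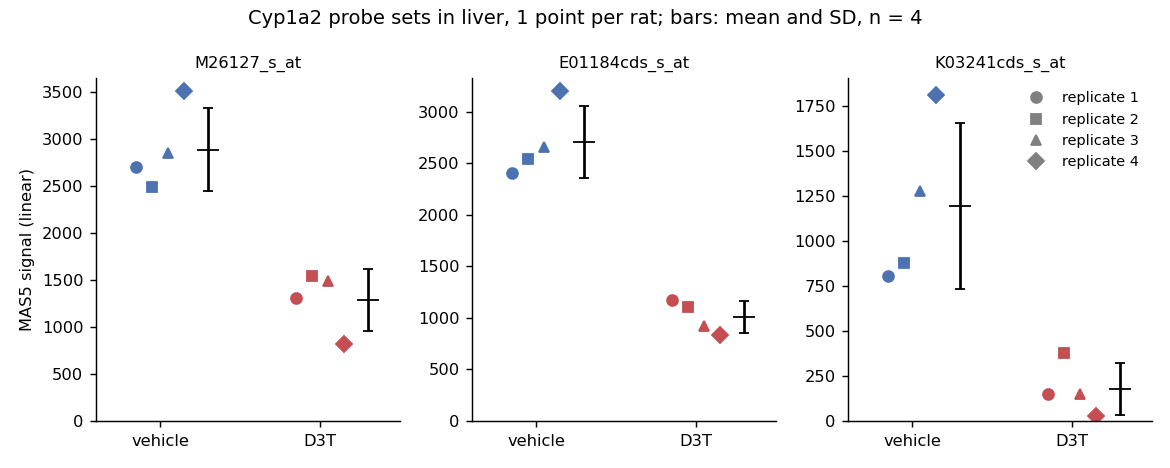
MAS5 signal (linear axis from 0) of the 3 Cyp1a2 probe sets, 1 point per rat with a marker per replicate number, and bars for the mean and SD of 4 arrays. In each panel the 4 D3T rats lie below the 4 vehicle rats, with D3T replicate 4 lowest (820.0, 837.5 and 28.2) and vehicle replicate 4 highest (3509, 3208 and 1814).

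Calls were read against the whole array. Of the 5244 probe sets tested, 10.7% passed an adjusted p of 0.05 in either direction, 6.48% as lower after D3T and 4.20% as higher. The D3T arrays lay wholly below the vehicle arrays for 11.3% of them and wholly above for 7.89%. Of the 14 member probe sets 6 were bright enough to be tested, all 3 of Cyp1a2, both of Arnt and 1 of Cyp1b1. Among these 6, limma called 3 lower and 0 higher, with 0 higher at an unadjusted p under 0.05. The background moved with single arrays. With all arrays 560 probe sets passed, against 260, 695, 240 and 301 when vehicle replicates 1 to 4 were dropped in turn. The counts were 279, 493, 447 and 307 when D3T replicates 1 to 4 were dropped in turn. With no filter, which tests all 8740 probe sets and calls 3.54% of them, the Cyp1a2 calls on M26127_s_at and E01184cds_s_at held (limma adjusted p = 0.0375 and 0.00507), and K03241cds_s_at did not pass (adjusted p = 0.0746).

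Both measures of RNA quality read from the arrays had a lower minimum and maximum after D3T than in vehicle, with overlapping ranges. Their correlation with Cyp1a2 was not computed. The ratio of the 3' to the 5' control probe set for beta-actin, which rises when RNA is broken or copied incompletely, ran from 1.45 to 1.59 in vehicle and from 1.17 to 1.47 after D3T (exact two-sided permutation p = 0.0571, 0.190 adjusted over 4 array measures). D3T replicate 4, the lowest for Cyp1a2, also had the lowest ratio, while D3T replicate 3 lay within the vehicle range. The same ratio for GAPDH ran from 1.70 to 2.18 in vehicle and from 1.43 to 2.00 after D3T (exact two-sided permutation p = 0.114, adjusted 0.190), again with D3T replicate 4 lowest and D3T replicate 3 within the vehicle range. With the actin ratio as a covariate E01184cds_s_at was still lower (log2 fold change -1.30, limma adjusted p = 0.0410). M26127_s_at and K03241cds_s_at had log2 fold changes of -0.65 and -1.71 and did not pass (limma adjusted p = 0.251 and 0.384). Over the whole array 35 probe sets passed with the covariate.

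The names of 9 of the 14 member probe sets carry a suffix that marks probes matching more than 1 transcript. Among them are all 3 of Cyp1a2, that of Cyp1a1, X83867cds_s_at of Cyp1b1, AF082125_s_at of Ahr and U08986_s_at of Arnt. The signal therefore may not come from the named gene alone. The Cyp1a1 probe set itself did not exceed 32.0 on any array. The sizes of the fall on the 3 Cyp1a2 probe sets were compared within arrays. The log2 difference between M26127_s_at and K03241cds_s_at was larger by 1.99 after D3T than in vehicle, with no overlap of the groups. The exact two-sided permutation p of 0.0286, the smallest that 4 against 4 arrays can give, was 0.0408 adjusted over the 10 differences compared. Between E01184cds_s_at and K03241cds_s_at the shift was 1.76 with SDs of 0.37 in vehicle and 1.39 after D3T, and the groups overlapped (exact permutation p = 0.0571, adjusted 0.0714). M26127_s_at and E01184cds_s_at differed by 0.23 with SDs of 0.09 and 0.32 (exact permutation p = 0.257, adjusted 0.257).

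The single Cyp1a1 probe set, E00778cds_s_at, lay near the floor on every array. Its signal was 13.5, 27.0, 17.0 and 25.2 in vehicle replicates 1 to 4 and 26.5, 23.5, 32.0 and 24.1 in D3T replicates 1 to 4. The groups overlapped, 2 vehicle arrays were at the floor, and the probe set was too dim to be tested. In the fit without a filter the log2 fold change of the floored signals was 0.19 ± 0.14 SE (limma adjusted p = 0.500). Within arrays the response of Cyp1a2, read on its brightest probe set M26127_s_at, differed from that of Cyp1a1 by -1.38 on the log2 scale, with separate groups (exact permutation p = 0.0286, adjusted 0.0408). A signal so near the floor can hide a fall, so that difference is measured against a probe set with little room to move down.

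Cyp1b1 had 1 tested probe set, X83867cds_s_at, with a signal of 88.7, 131.6, 75.8 and 97.8 in vehicle replicates 1 to 4 and 84.6, 62.2, 75.9 and 153.0 in D3T replicates 1 to 4. The groups overlapped fully, and the log2 fold change of -0.13 ± 0.34 SE did not pass (limma adjusted p = 0.828). Its sign turned without vehicle replicate 2 (0.024) and without D3T replicate 2 (0.044).

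The other 3 Cyp1b1 probe sets were below the filter. U09540_at read 38.3, 46.8, 26.6 and 37.0 in vehicle replicates 1 to 4 and 88.6, 94.7, 175.7 and 39.6 after D3T. D3T replicates 1 to 3 stood above all vehicle arrays and D3T replicate 4 among them. The no-filter fit gave a log2 fold change of 1.26 ± 0.45 SE (unadjusted p = 0.0275, limma adjusted p = 0.184). U09540_g_at, which shares its base name, had the opposite sign (log2 fold change -0.68 ± 0.60 SE, limma adjusted p = 0.593), with 4 of 8 arrays at the floor. On rc_AI176856_at all 8 arrays were at the floor. The probe sets of Cyp1b1 thus gave no common direction.

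Ahr, the receptor gene, had no probe set bright enough to be tested. On AF082125_s_at, its brightest by mean log2 signal, the values were 34.4, 57.9, 32.2 and 30.9 in vehicle replicates 1 to 4 and 59.4, 52.9, 56.9 and 73.8 in D3T replicates 1 to 4. The groups overlapped through vehicle replicate 2 alone, which lay within the D3T range while the other 3 vehicle arrays lay below it. The no-filter fit gave a log2 fold change of 0.68 ± 0.23 SE (unadjusted p = 0.0226, limma adjusted p = 0.167).

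The remaining Ahr probe sets gave no common direction. AF082124_s_at read 41.2, 32.9, 48.7 and 153.2 in vehicle replicates 1 to 4 and between 34.1 and 42.0 after D3T, a log2 fold change of -0.57 ± 0.47 SE (no-filter limma adjusted p = 0.568). Vehicle replicate 4 stood far above the rest on that probe set. AF082126_at was at the floor on 6 of 8 arrays, with 42.2 in vehicle replicate 4 and 42.4 in D3T replicate 1, and U04860_at was at the floor on all 8. Of the 2 members with an unadjusted p under 0.05 in the higher direction without a filter, U09540_at of Cyp1b1 and AF082125_s_at of Ahr, neither passed after adjustment.

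Arnt, the partner of the receptor and also of the hypoxia factor Hif1a, had 2 tested probe sets that differed in sign. U61184_at read 199.2, 236.2, 196.4 and 285.4 in vehicle replicates 1 to 4 and 285.1, 279.9, 225.5 and 324.4 in D3T replicates 1 to 4. The means were 229.3 ± 41.6 and 278.7 ± 40.6 (SD, n = 4 each), the groups overlapped, and the log2 fold change of 0.29 ± 0.19 SE did not pass (limma adjusted p = 0.339). U08986_s_at read 45.9, 86.7, 62.1 and 136.3 in vehicle and 89.2, 102.3, 19.2 and 51.2 after D3T. Its log2 fold change was -0.46 ± 0.56 SE (limma adjusted p = 0.608), and the sign turned without D3T replicate 3 (0.026), the array at the floor.

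**Figure D2:**
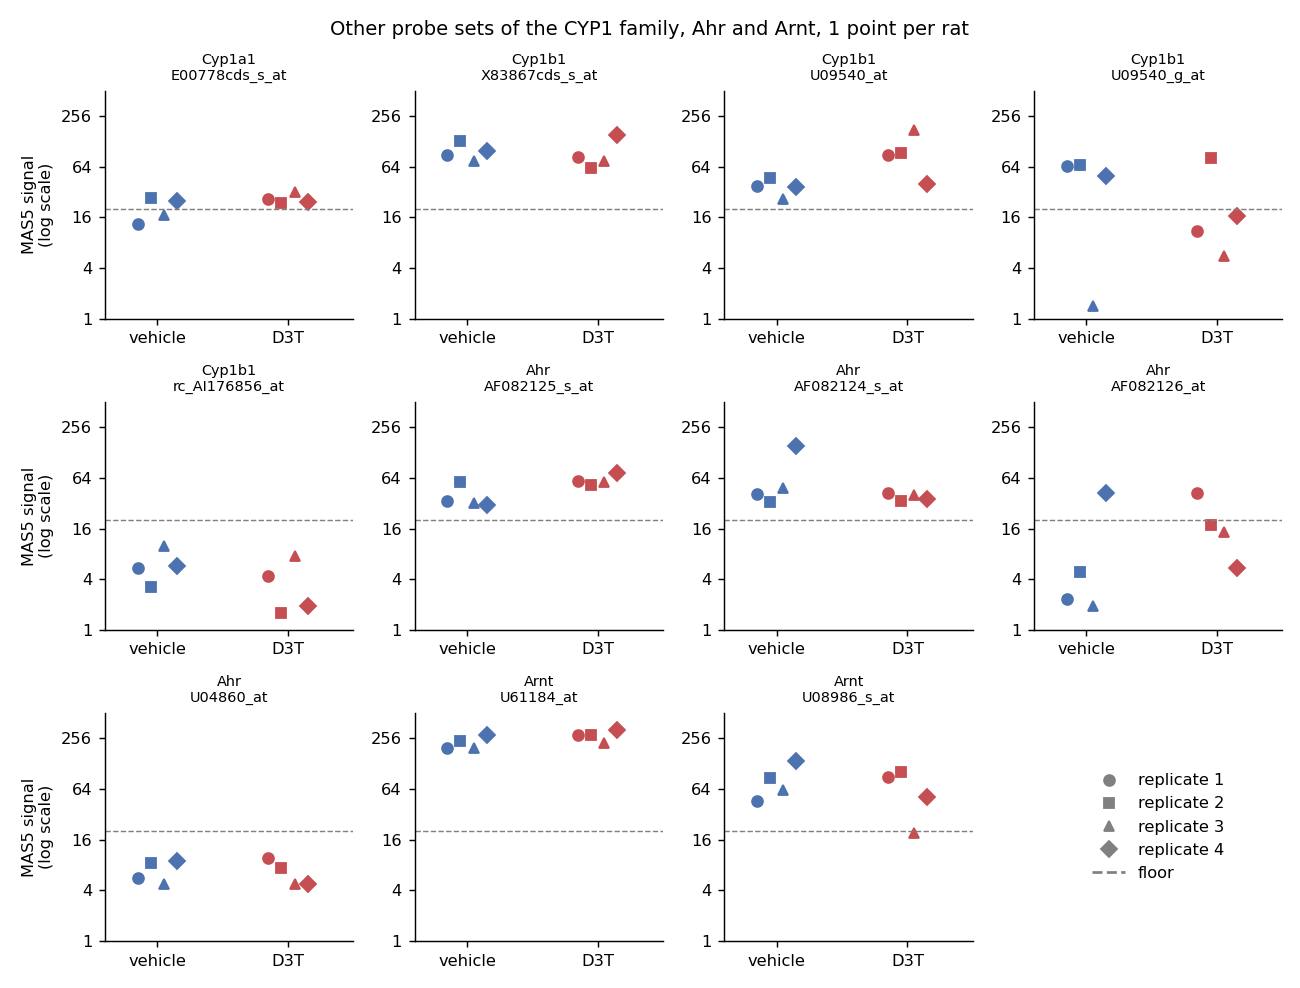
MAS5 signal (log axis) of the 11 member probe sets outside Cyp1a2, 1 point per rat, with a marker per replicate number and a dashed line at the floor of 20.4. The vehicle and D3T points overlap in all 11 panels, and those of rc_AI176856_at and U04860_at lie wholly below the line.

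All 11 member probe sets outside Cyp1a2 had overlapping groups. U08986_s_at, at rank 5129 of 8740 by mean level, was just inside the filter, and U09540_at, at rank 5372, just outside it. Within arrays, the response of Cyp1a2 differed from that of Arnt by -1.48 on the log2 scale, with separate groups (exact permutation p = 0.0286, adjusted 0.0408). The Cyp1a2 groups were separate before any subtraction, so that p, like the one against Cyp1a1, adds little to the fall of Cyp1a2. The difference from Ahr was -1.87 when Ahr was read on AF082125_s_at, but no Ahr probe set was bright enough to be tested. AF082124_s_at, next to it in mean log2 level, had a log2 fold change of the opposite sign (-0.57 against 0.68), so no response of Ahr is shared by its probe sets. Against Cyp1b1 the difference was -1.07 with SDs of 0.45 in vehicle and 0.98 after D3T, and the groups overlapped (exact permutation p = 0.0857, adjusted 0.0952). Ahr and Cyp1b1 were read on their brightest probe sets for these differences.

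**Figure D3:**
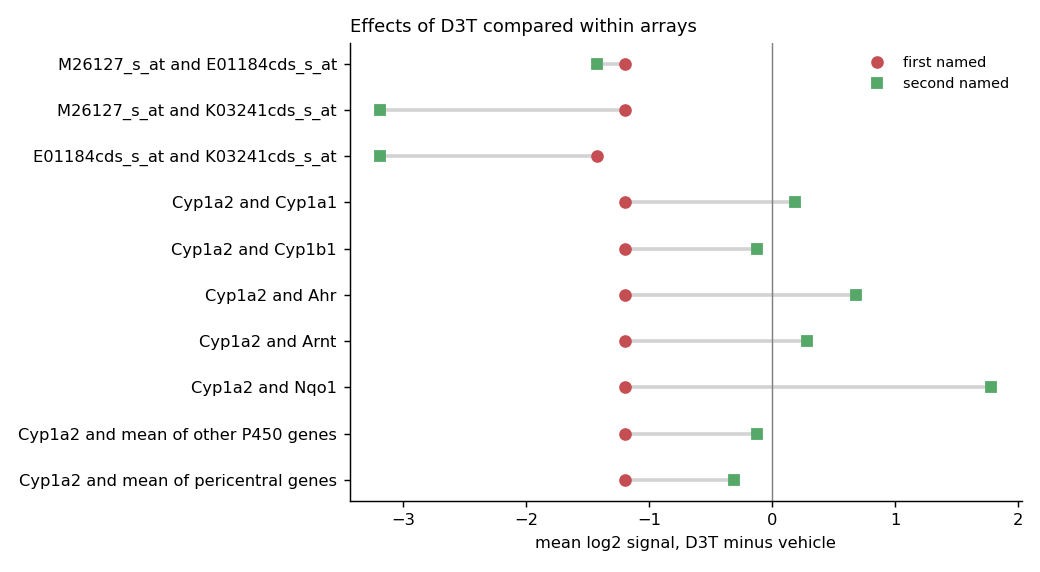
Mean change of log2 signal (D3T minus vehicle, 4 arrays each) for the 10 pairs compared within arrays, with a red point for the first named of a pair and a green square for the second. M26127_s_at, at -1.19, is the first named in all pairs but that of E01184cds_s_at (-1.43) and K03241cds_s_at (-3.19), and every other gene or mean set against it lies to its right.

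Other genes known to respond to the receptor changed in both directions. Of 8 such genes tested, 3 were higher and 1 was lower, with a median log2 fold change of -0.074. Over all 3150 genes tested by their brightest probe set 9.56% passed, 3.71% as higher and 5.84% as lower, and the median was 0.03. Nqo1, a quinone reductase with both receptor and antioxidant response elements, had mean signals of 195.0 ± 45.02 in vehicle and 672.6 ± 152.1 after D3T (SD, n = 4 each, log2 fold change 1.78, limma adjusted p = 0.00115). The response of Cyp1a2 minus that of Nqo1 was -2.98 on the log2 scale within arrays. Every D3T array lay above every vehicle array for Nqo1 and below every vehicle array for Cyp1a2. The exact permutation p of 0.0286 (adjusted 0.0408) followed from that separation and adds no evidence. The glutathione transferase gene Gsta1 was 2.98-fold higher (limma adjusted p = 0.000345), on a probe set with a shared-sequence suffix, so other genes may contribute. Ugdh, which makes UDP-glucuronic acid, was 1.92-fold higher, and Xdh, which oxidises xanthine, was 1.61-fold lower (limma adjusted p = 0.0397 and 0.0259). When each array was dropped in turn, Ugdh passed in 2 of 8 fits and Xdh in 3 of 8. The count over the list was 2 of 8 without vehicle replicate 1, 3 or 4 and without D3T replicate 1 or 4. Aldh3a1, an aldehyde dehydrogenase that dioxin induces strongly in liver, read 157.7 ± 13.1 in vehicle and 142.8 ± 56.7 after D3T (limma adjusted p = 0.624). For Nfe2l2, which encodes the factor that dithiolethiones activate, the log2 fold change was -0.73 (limma adjusted p = 0.219).

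Of the genes that form or assist the receptor complex 4 were tested, and limma called 0, with 1 at an unadjusted p under 0.05. Their median log2 fold change was 0.28, and without vehicle replicate 2 the coactivator gene Ncoa1 passed. Hsp90ab1, the chaperone that holds the receptor, was at 8449 ± 936.6 in vehicle and 10114 ± 518.4 after D3T (log2 fold change 0.27, limma adjusted p = 0.140). Hif1a, another partner of Arnt, was the single gene tested of the related PAS-domain factors, and it did not pass (log2 fold change 0.28, limma adjusted p = 0.530, and -0.054 with the actin covariate). Among 5 genes that pass electrons to P450 enzymes 1 was higher and 0 lower. Cyb5a, a cytochrome b5, was 1.59-fold higher (limma adjusted p = 0.0174, but 0.0558 without vehicle replicate 1). Por, the reductase that every microsomal P450 needs, was at 1885 ± 257.2 in vehicle and 1508 ± 267.7 after D3T (limma adjusted p = 0.183). Limma called 0 of 8 genes of heme synthesis and breakdown, with 2 at an unadjusted p under 0.05 and a median of -0.19. Alas1, the rate-limiting enzyme of heme synthesis in liver, was at 3049 ± 600.8 and 2579 ± 720.0 (limma adjusted p = 0.408), and its other probe set had the opposite sign.

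Cyp1a2 was set against the other P450 genes, of which 39 were tested, 2 higher and 5 lower, with a median log2 fold change of -0.0048. Less bright probe sets passed for some genes not called, 2 of Cyp3a23-3a1 and 1 of Cyp2j3 as lower and 2 of Cyp2e1 as higher. Within arrays Cyp1a2 fell by 1.07 more on the log2 scale than the mean of these 39 (exact permutation p = 0.0286, adjusted 0.0408). The mean moved by -0.12 and the Cyp1a2 groups were separate already, so that p largely repeats the fall of Cyp1a2. Without D3T replicate 4 the difference from the mean was -0.84, where 3 against 4 arrays cannot give an exact p under 0.0571. The mean of the 39 genes was unweighted and included dim ones, such as Cyp11a1 at 83.0 ± 61.0 and Cyp21a1 at 92.3 ± 46.3 in vehicle (SD, n = 4 each). Cyp3a2, of a family that oxidises steroids and many drugs, fell 3.28-fold (limma adjusted p = 0.000553), from 5932 ± 955.5 to 1841 ± 505.4 (SD, n = 4 each). Cyp3a9 fell 2.01-fold and the sterol demethylase Cyp51 fell 1.87-fold (limma adjusted p = 0.00782 and 0.00513). Cyp4b1 was 2.04-fold lower with a limma adjusted p of 0.0496, and it passed in 1 of 8 fits that dropped an array. Cyp4a1, a fatty acid hydroxylase, was 1.68-fold lower (limma adjusted p = 0.0274) and passed in 4 of 8 such fits, and 1 of its 2 other probe sets had the opposite sign. The higher genes were Cyp2b2 at 1.97-fold and Cyp2a1 at 1.57-fold (limma adjusted p = 0.00148 and 0.0132), both on probe sets with a shared-sequence suffix. Among the lower genes the probe sets of Cyp3a2, Cyp51 and Cyp4a1 carry that suffix too, and those of Cyp3a9 and Cyp4b1 do not.

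**Figure D4:**
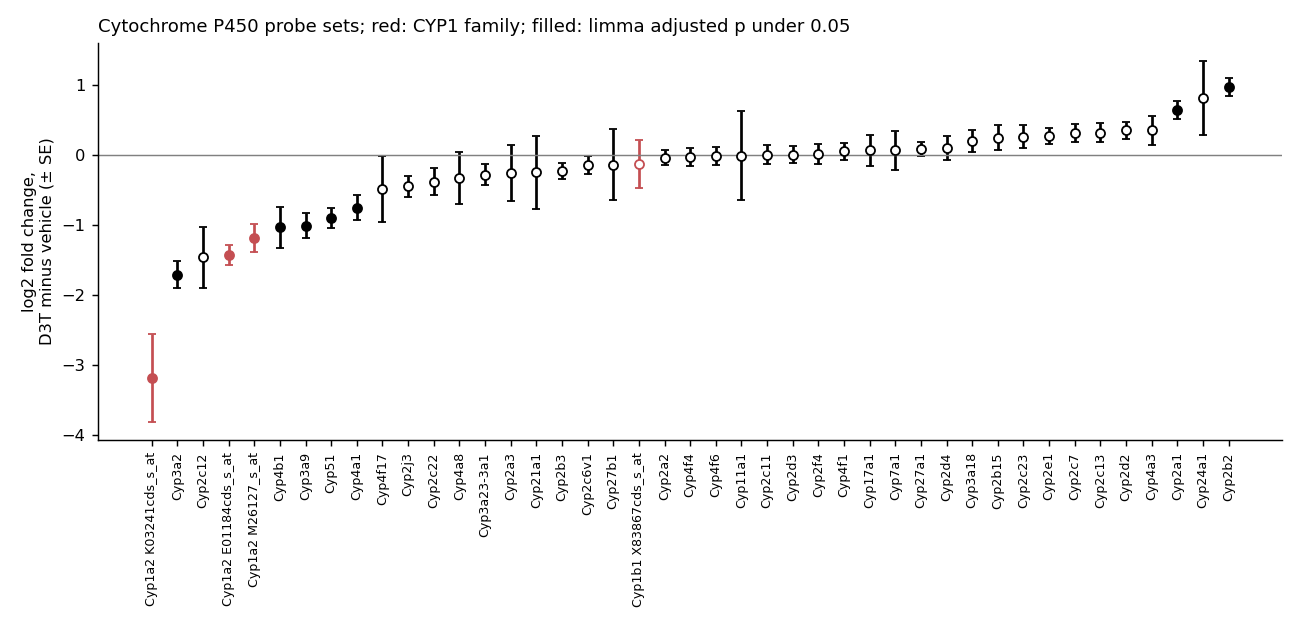
Log2 fold change (D3T minus vehicle) with its SE for the tested probe sets of the CYP1 family, in red, and for 39 other P450 genes, in black, each by its brightest probe set and ordered by size, with filled points for a limma adjusted p under 0.05. K03241cds_s_at of Cyp1a2 is the lowest at -3.19, Cyp1b1 lies near 0 at -0.13, and Cyp2b2 is the highest of those called.

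Since Cyp1a2 marks hepatocytes near the central vein, other genes of that zone were counted. Of 10 tested, 1 was higher and 3 were lower, with a median log2 fold change of 0.039. Car3, a carbonic anhydrase, Oat, which degrades ornithine, and Cyp3a2 were the lower genes, with log2 fold changes of -2.02, -1.98 and -1.71, and the aldehyde dehydrogenase Aldh1a1 was the higher, at 2.13. Glul, the glutamine synthetase of the innermost hepatocytes, had a log2 fold change of -0.47 (limma adjusted p = 0.102). Cyp2e1, an ethanol-oxidising P450 of that zone, had one of 0.28 (limma adjusted p = 0.122), and -0.027 with quantile normalization. Other probe sets of both genes did pass, 2 of Glul and 2 of Cyp2e1, each with the sign of the one read. Cyp1a2 fell by 0.89 more than the mean of the 10 genes within arrays (exact permutation p = 0.0286, adjusted 0.0408). That p also adds little, since the Cyp1a2 groups were separate already. Of 13 genes made mainly around the portal vein 0 were higher and 1 was lower, the urea cycle gene Asl at 1.54-fold (limma adjusted p = 0.0399, passing in 1 of 8 fits that dropped an array), with a median of -0.0078. Among 12 liver transcription factors 2 were higher and 1 was lower, with a median of -0.31. The higher genes were Rxra, a retinoid receptor, at 5.55-fold and Hnf4a at 1.41-fold, and Cebpb, a factor of the acute phase response, was lower by a log2 fold change of -0.59 (limma adjusted p = 0.00725, 0.0477 and 0.0186). Hnf4a passed in 0 of 8 fits that dropped an array, and Cebpb in 6 of 8, not without vehicle replicate 1 or D3T replicate 1. Rxra did not pass with no filter (limma adjusted p = 0.0528). With the actin ratio as a covariate Gsta1, Aldh1a1 and Car3 passed, and the other genes called in the lists above did not. Some of these kept log2 fold changes close to those without it, such as Oat at -2.03, Nqo1 at 1.67 and Cyp3a2 at -1.60 (limma adjusted p = 0.0963, 0.0802 and 0.0667). Others were nearer 0 with it, such as Ugdh at 0.16, and Asl at -0.27 (limma adjusted p = 0.639).

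**Figure D5:**
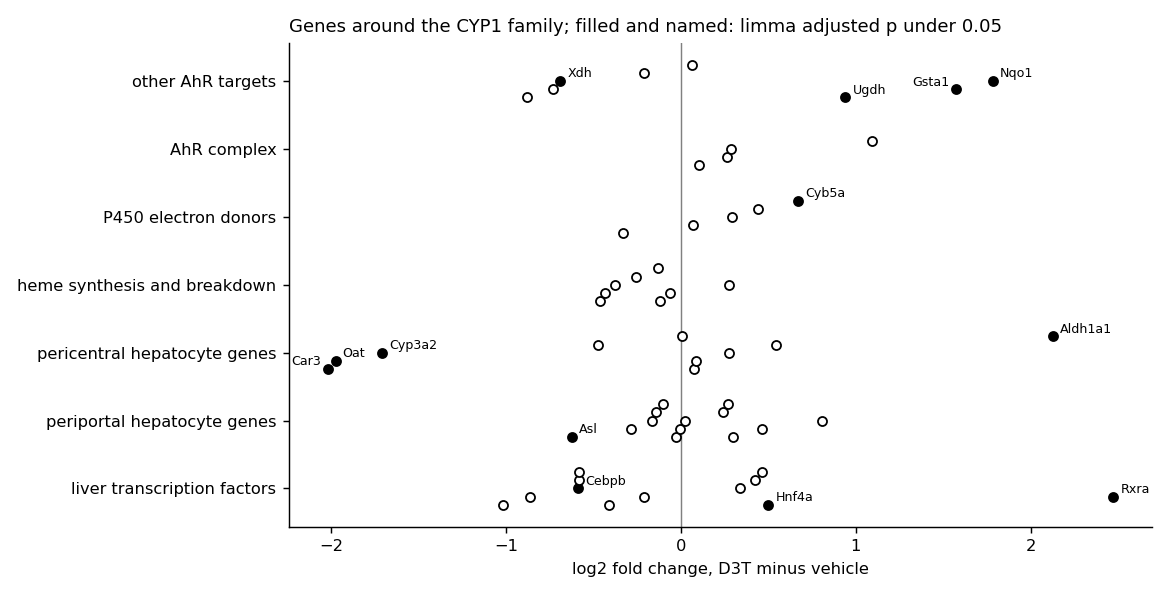
Log2 fold change (D3T minus vehicle) of each gene tested in 7 lists around the CYP1 family, 1 point per gene by its brightest probe set, with filled and named points for a limma adjusted p under 0.05. Nqo1, Gsta1 and Ugdh lie to the right among the receptor targets, while Car3, Oat and Cyp3a2 lie to the left among the pericentral genes, with Aldh1a1 to the right at 2.13 and the genes not called between them.

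Markers of the cells in liver were read beside these results. Of 9 hepatocyte markers tested limma called 0 higher and 1 lower, the fibrinogen gene Fgb, with 6 at an unadjusted p under 0.05. Less bright probe sets of Fga and Apoa1 did pass, 1 of each, both as lower, and that of Apoa1 against the sign of the one read. Without vehicle replicate 2, 4 of the 9 passed, with Alb, Serpina1 and Ttr as higher. Their summed signal ran from 204668 to 300488 in vehicle and from 252747 to 346417 after D3T. Of 5 Kupffer cell and macrophage markers 1 was higher, Cd14, and 2 were lower, C1qb and Cyba, and the sum over 6 measured genes ran from 4640 to 4939 in vehicle and from 3173 to 4031 after D3T. Endothelial markers summed to 1525 to 1790 and 1298 to 1433, with 1 of 5 lower (Lyve1, in 1 of 8 fits that dropped an array), and stellate cell markers to 2320 to 3602 and 1995 to 2587, with 1 of 6 lower (Col3a1, in 2 of 8 such fits, and with overlapping groups). Blood cell markers summed to 15110 to 20807 in vehicle and 10697 to 14535 after D3T, lymphocyte markers to 605.6 to 716.1 and 780.7 to 985.8, and bile duct markers to 2980 to 4752 and 3231 to 4364. In these 3 lists limma called 0 of 5, 0 of 4 and 0 of 5, with 3, 3 and 1 at an unadjusted p under 0.05. With the actin covariate Cyba passed (limma adjusted p = 0.0145), and Fgb, Cd14, C1qb, Lyve1 and Col3a1 did not (limma adjusted p from 0.210 to 0.379). No measured marker was at the floor on all arrays, and the part of other cell types in the Cyp1a2 result was not tested.

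The genes whose signal followed that of Cyp1a2 most closely over the 8 arrays were sought among the 3147 other genes tested, by the root mean square difference of log2 profiles, each centred on its own mean. For M26127_s_at of Cyp1a2 these were C1s, a protease of the complement system, at 0.19, Afm, a plasma carrier protein of the albumin family, at 0.19, and Tnks2, a poly-ADP-ribosyltransferase, at 0.20, where the median gene was at 0.75. The Cyp1a2 profile itself varied by 0.66. C1s, Afm and Tnks2 were 2.46-fold, 2.02-fold and 2.17-fold lower after D3T (limma adjusted p = 0.00345, 0.00172 and 0.0296). These falls follow from the choice of genes by likeness to a profile that falls after D3T, and are no separate result. Tnks2 passed in 2 of 8 fits that dropped an array. With the actin covariate neither C1s nor Afm passed, at log2 fold changes of -0.84 and -0.65 (limma adjusted p = 0.192 and 0.124), as for M26127_s_at itself. For Cyp1b1 the nearest were Tap1, Il1r2 and Csf1, at 0.20 to 0.23, and for Arnt they were Lrp2, Ctrc and Cyp2c7, at 0.12 to 0.13. The Cyp1b1 and Arnt profiles vary little themselves, by 0.40 and 0.25, so likeness there says little.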

How the data were processed

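All 8 arrays were used, grouped by their titles, which state the group and a replicate number, and the series design states separate rats. The deposited values are linear signal intensities made by the authors with MAS5, per the submitters' processing notes, whose version and scaling target the sources used here do not give, and no detection calls were used. The 2% trimmed mean of every array was brought to 500 from 500.8 or more, signals under the 20th percentile (20.4) were raised to that floor, and log2 values were used. Leaving aside 59 controls, the 60% of probe sets highest in mean log2 signal (5244 of 8740) went into limma (3.58.1, under R 4.3.3), with moderated variances that followed intensity and Benjamini-Hochberg adjustment over all 5244. A fold change compares geometric means of floored signals, so it understates changes near the floor. Names came from the platform's annotation (7006 probe sets with 1 symbol, 308 with several, 1426 with none), and 6985 identifiers were found in RefSeq. A gene in a list was read on its brightest tested probe set, and many of these carry a shared-sequence suffix. Scripts were tested on simulated data.

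Members, lists and tests were chosen with earlier results of these data known. From each list the genes past the threshold with the largest changes were named, up to 4, with a few fixed genes, and no list was tested as a set. Exact permutation tests used all 70 assignments of arrays. Alternatives covered scaling, floor, filter, variance model, replicate block, an actin 3'/5' covariate, probe sets with shared-sequence names and leaving out each array.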

Additional observations from a re-analysis of the deposited data

Results flagged for a closer look

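In 4 of 24 groups of 4 arrays over the member probe sets, 1 array stood apart from the other 3. Its ratio of gap to range, taken on log2 of the floored signals, was above Dixon's 95% critical value. Chance exceeds that value in about 1 of 20 groups. On U09540_g_at of Cyp1b1, D3T replicate 2 (81.1) was the highest, with a ratio of 1.0 because the other 3 D3T arrays were at the floor. On AF082126_at of Ahr the same held for vehicle replicate 4 (42.2) and D3T replicate 1 (42.4), each with a ratio of 1.0. On AF082125_s_at of Ahr, vehicle replicate 2 (57.9), the array whose labels name no dosing days, was the highest of its group with a ratio of 0.82903, barely above that value. No Cyp1a2 or Arnt probe set was among them, and on that scale neither was AF082124_s_at of Ahr, where vehicle replicate 4 read 153.2.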

How the results depend on the processing

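The fall of Cyp1a2 kept its direction on all 3 probe sets in each of 20 alternatives that tested them. E01184cds_s_at passed in all 20 (log2 fold change from -1.50 to -1.30), M26127_s_at in 19, failing with the actin covariate (-0.65), and K03241cds_s_at in 18, failing with the actin covariate (-1.71) and with no filter (-3.19, adjusted p = 0.0746). Leaving out each array gave -1.29 to -0.99 for M26127_s_at, -1.50 to -1.34 for E01184cds_s_at and -3.72 to -2.47 for K03241cds_s_at. No fit without shared-sequence probe sets was possible for Cyp1a2, since all 3 carry that suffix. The count of changed, lower and higher probe sets over the array was 560, 340 and 220. Testing all probe sets gave 309, 178 and 131, and a variance prior free of the intensity trend gave 333, 209 and 124. It became 35, 11 and 24 with the actin covariate, 257, 166 and 91 without shared-sequence probe sets (fewer were tested), and 240 to 695, 140 to 380 and 100 to 315 without 1 array. The largest counts, 824, 501 and 323, came from a fit that gave each array a weight. Same-numbered vehicle and D3T arrays deviated from their group means with correlations from -0.20 to 0.063 and were not treated as pairs. Of the vehicle arrays 1 of 4 correlated best with its own number. With the replicate number as a block these counts were 290, 191 and 99, and the 3 Cyp1a2 calls held (adjusted p = 0.0285, 0.00574 and 0.0342). Apart from the construction named, the cause was not tested. Among the tested members and the other genes whose fold changes are given here, the signs that turned, all of values not past the threshold, were those of Cyp1b1 X83867cds_s_at (-0.39 to 0.044 without 1 array, with 0.024 and 0.044 without vehicle replicate 2 and D3T replicate 2), Arnt U08986_s_at (-0.75 to 0.026 without 1 array, 0.026 without D3T replicate 3), Cyp2e1 (-0.027 with quantile normalization) and Hif1a (-0.054 with the actin covariate). The 7 within-array differences at the smallest exact p kept their sign in all 12 alternatives, and the 8 without 1 array could not reach 0.05.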
